A study of Mus musculus with 32 samples.

Results

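The 32 striatal RNA libraries of this study differ in how many of their counts fall outside every annotated gene, and the libraries at the upper end of that range were compared with those at the lower end. The libraries were chosen by this share. For each library, the no-feature count was divided by the sum of all lines of its file, summary lines included. Of the 32 libraries, 10 had a share above 25% and are called high-share libraries, 15 had a share of 20% or less and are called low-share libraries, and 7 lay between. The share was 29.4% ± 2.65 in the 10 high-share libraries and 18.4% ± 1.07 in the 15 low-share libraries (SD). Since the share itself chose the libraries, this difference is a description. Gene counts entered the choice only as part of that sum, and the level of no single gene was used.

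By its title, the study treats YAC128 mice with an antisense oligonucleotide that disrupts the caspase-6 cleavage site of HTT. These mice carry human mutant huntingtin on a yeast artificial chromosome and model Huntington disease. YAC128 mice on a B6 background received AON12.1, the targeting oligonucleotide, or a scrambled control oligonucleotide, or only the vehicle aCSF (artificial cerebrospinal fluid), and wild-type (WT) littermates received aCSF, with 8 libraries in each of the 4 groups. The cannula lay in the lateral ventricle, and 500 µg oligonucleotide in 10 µL, or aCSF alone, was given at about 6 months of age and again 2 and 4 weeks after that. Striatum was taken at 12 months. The labels number every animal separately, with 1 library each, so p-values measure the spread between animals. High-share libraries made up 3 of 8 AON12.1, 1 of 8 scrambled, 5 of 8 YAC128 aCSF and 1 of 8 WT aCSF libraries, and low-share libraries made up 4, 2, 2 and 7 of them. The comparison of high-share with low-share libraries therefore carried the group as a covariate.

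Animal numbers in the labels begin with 18 or 19, and what this marks is not stated. High-share libraries were 5 of the animals in series 18 and 5 of those in series 19, and low-share libraries were 4 and 11 of them. The high-share library nearest to the upper limit was AON12.1 replicate 6 at 26.1%, and the nearest library left out below it was YAC128 aCSF replicate 5, just under 25%. The low-share library nearest to the lower limit was scrambled replicate 7 at 19.97%, and the nearest library left out above it was scrambled replicate 1 at 20.3%. Total gene counts were 957400 ± 152500 in high-share and 928700 ± 181800 in low-share libraries (SD, n = 10 and 15; two-sided exact permutation test within groups, p = 0.762, adjusted p = 0.893 over 4 library measures). Of the counts outside the no-feature line, ambiguous counts made up 2.03% in high-share and 2.08% in low-share libraries (exact permutation p = 0.543, adjusted p = 0.893), and counts aligned more than once made up 11.4% in high-share and 11.3% in low-share libraries (exact permutation p = 0.893, adjusted p = 0.893). The striatal projection neuron genes Penk, the enkephalin precursor, and Ppp1r1b, a phosphatase inhibitor under dopamine control, reached at least 1510 and 442 CPM (counts scaled to a fixed total per library after normalisation) in each high-share library and 2482 and 776 CPM in each low-share library.

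A read is assigned to no feature when it lies in an intron or between annotated genes. Unspliced precursor RNA and many long noncoding RNAs stay in the nucleus, whereas messenger RNAs of ribosomal, respiratory chain and synaptic proteins are spliced, exported and mostly cytoplasmic, and those of the mitochondrial genome are made inside the organelle. Some transcripts of splicing regulators keep introns that are removed late, called detained introns, and are held in the nucleus as well. The library method primes reverse transcription with oligo-dT, which anneals to poly(A) tails and can also anneal to runs of A within a transcript.

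RNAs that remain in the nucleus took 1.79% ± 0.339 of gene counts in high-share and 0.654% ± 0.138 in low-share libraries, and gene models that lie wholly inside introns 0.386% ± 0.058 in high-share and 0.112% ± 0.0241 in low-share libraries (SD, n = 10 and 15). Ribosomal, mitochondrial and synaptic genes differed less. In the quasi-likelihood test of edgeR, with p-values adjusted after Benjamini and Hochberg, 884 of 10679 tested genes (8.28%) were higher and 390 (3.65%) lower at an adjusted p under 0.05, 1274 (11.9%) in all. The median log2 fold change over all tested genes was -0.02. In 122 genes (1.14%) the 10 high-share and 15 low-share libraries did not overlap, and in all 122 the high-share libraries were the higher ones. The filter on low counts used all 32 libraries, so some genes passed it through the high-share libraries, which raises the counts of higher genes. Of 10540 tested genes that also passed it on the low-share libraries alone, 769 were higher. On those libraries the filter asks for counts in only 2 libraries, against 8 in the filter used for the test. Here and in each such count below it therefore removes the selection only in part. Within series 18 alone, only WT aCSF held both high-share and low-share libraries, 1 against 2. With group as covariate that fit rests on WT replicate 1, so no conclusion is drawn from its gene counts. Within series 19 alone, with 5 high-share and 11 low-share libraries, 344 genes were higher and 28 lower. The WT libraries of series 19 were all low-share and add nothing to that fit. Without WT aCSF replicate 1, the lone high-share library of its group, 669 were higher and 211 lower. Lower calls also fell to 215 without AON12.1 replicate 4 and to 151 without YAC128 aCSF replicate 8. Scaled to the sum of all lines in place of gene counts, the median of all genes moved to -0.21, and 553 genes were higher and 3115 lower. Scaled to gene totals with no composition factor, 1001 were higher and 225 lower.

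Of 22 nuclear noncoding RNAs listed, 16 passed the filter on low counts, and 14 of these 16 were higher and none lower, beside 8.28% higher and 3.65% lower among all tested genes. Their median log2 fold change was 1.13, against -0.02 for all tested genes. On the low-share libraries alone 15 of the 16 passed the filter, and 13 of these were higher. The median of the 15 was 1.12. Summed over all 22, they took 1.29% to 2.36% of gene counts in high-share libraries, with a median of 1.72%, and 0.444% to 0.879% in low-share libraries, with a median of 0.676%. The 2 sets of libraries did not overlap. Xist, Tsix, Airn, Rmst, Pvt1 and Nespas had too few counts to be tested.

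Meg3, a maternally expressed noncoding RNA of chromosome 12, had 6476, 7845 and 10530 CPM as lowest, median and highest value in high-share libraries, and 1751, 2737 and 3781 CPM in low-share libraries. Every high-share library exceeded every low-share library, and Meg3 rose, with a log2 fold change of 1.62 ± 0.12 (SE, as for all fold changes below; adjusted p = 4.8e-12). Rian, a noncoding RNA of the same imprinted cluster, rose by 1.78 ± 0.17 (adjusted p = 2.85e-09), with 107 CPM on average in high-share and 29.96 CPM in low-share libraries. Kcnq1ot1, which is transcribed from within Kcnq1 on the opposite strand and silences neighbouring imprinted genes, had 149.7, 203.8 and 314 CPM in high-share and 20.6, 43.8 and 80.5 CPM in low-share libraries. It showed no overlap either and rose by 2.27 ± 0.16 (adjusted p = 3.69e-12), the largest of the 14 changes. The sources used here do not say whether counting used strand, so reads of Kcnq1ot1 and of its antisense partner cannot be told apart.

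Malat1, an abundant noncoding RNA of nuclear speckles, had 4122, 6990 and 12220 CPM in high-share and 1259, 2758 and 4058 CPM in low-share libraries. The lowest high-share library lay just above the highest low-share library, and Malat1 rose by 1.52 ± 0.18 (adjusted p = 1.68e-07). Neat1, the scaffold of paraspeckles, had 65.6, 79.0 and 104.5 CPM in high-share and 18.3, 42.0 and 58.3 CPM in low-share libraries and rose by 1.24 ± 0.13 (adjusted p = 2.77e-08). Snhg11, a host gene of small nucleolar RNA that the annotation used here types as protein coding, had the smallest p of the named genes, with 1310, 1582 and 1906 CPM in high-share and 369.2, 616.4 and 773.9 CPM in low-share libraries (1.51 ± 0.10, adjusted p = 1.56e-12). Snhg14, a long imprinted transcript antisense to Ube3a, rose by 1.08 ± 0.11 (adjusted p = 7.66e-09). Peg13, a noncoding RNA that lies inside Trappc9, and Dlx6os1, the antisense transcript of Dlx6, were the 2 tested members not called. Peg13 had 147.9, 200 and 231 CPM in high-share and 191.1, 214.8 and 231.7 CPM in low-share libraries (-0.18 ± 0.07, adjusted p = 0.0947), and Dlx6os1 differed by 0.03 ± 0.24 on that scale (adjusted p = 0.953).

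**Figure D1:**
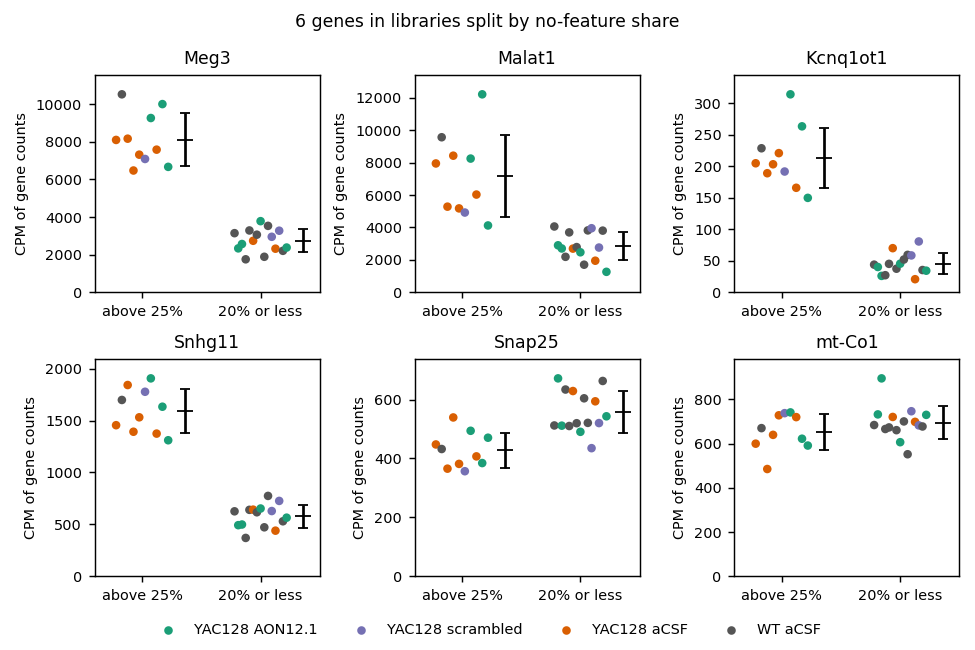
Normalised CPM of 6 genes (y axis, linear, from 0) in the 10 high-share (left) and 15 low-share (right) libraries. Each point is a library coloured by group, and the bar at the side gives mean ± SD. Meg3, Malat1, Kcnq1ot1 and Snhg11 do not overlap between the 2 sets, while Snap25 and mt-Co1 do.

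Not every noncoding RNA with a nuclear link was higher. Of 14 noncoding hosts of small nucleolar RNAs, 9 were tested and 1 was higher, Snhg20, at 31.3 ± 4.48 CPM in high-share and 17.4 ± 5.82 CPM in low-share libraries (SD, n = 10 and 15; log2 fold change 0.84 ± 0.16, adjusted p = 2e-04). The median of the 9 was -0.01, and the 1 higher makes 11.1%, near the 8.28% of all genes. By annotated type, 28 of 84 tested lincRNAs were higher (33.3%, beside 8.28% of all genes) and 2 lower (2.38%, beside 3.65%). Of 58 processed transcripts 17 were higher (29.3%) and 0 lower, and of 48 antisense RNAs 10 were higher (20.8%) and 0 lower. On the low-share libraries alone, 79, 55 and 45 of these passed the filter, and 24, 15 and 8 were higher. Processed pseudogenes, by contrast, were called at 9 higher and 2 lower of 218, a share below that of all genes.

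Gene models that lie inside an intron of a coding gene on the same strand, off its exons, are annotated from isolated transcripts, mostly as entries still to be experimentally tested. Whether reads counted in them belong to the host's unspliced RNA or to a transcript of their own was not tested, and the class holds Peg13, described above. Of 1792 such models 65 were tested, 60 of these were higher and 0 lower, and their median log2 fold change was 2.31. Of the 65, 52 did not pass the filter on the low-share libraries alone, so a difference was built into their selection, and the count and median support nothing. The other 13 passed it there, 8 of them higher, with a median of 2.16. That filter asks for counts in only 2 libraries, the size of the smallest low-share group, against 8 in the filter used for the test. Models low in most low-share libraries can pass it, such as Gm37211 at 4.825 CPM on average. The values of these 13 are therefore not free of the selection either. Summed over all 1792 models, with no filter, they took 0.312% to 0.496% of gene counts in high-share libraries and 0.0801% to 0.164% in low-share libraries, without overlap.

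Gm42583 lies inside Kcnd2, a potassium channel gene, and had 57.1, 66.2 and 93.3 CPM as lowest, median and highest value in high-share and 6.02, 15.1 and 29.7 CPM in low-share libraries. All 10 high-share libraries were above all 15 low-share libraries (2.34 ± 0.16, adjusted p = 1.65e-12). Kcnd2 itself did not pass the test, with 110.3 CPM in high-share and 122.3 CPM in low-share libraries on average (-0.15 ± 0.13, adjusted p = 0.523). Gm42772, inside the potassium channel regulator gene Kcnip4, had 16.4, 33.0 and 57.7 CPM in high-share and 1.23, 6.48 and 14.8 CPM in low-share libraries (2.43 ± 0.23, adjusted p = 2.05e-09), and Kcnip4 differed by 0.19 ± 0.14 (adjusted p = 0.447). These models were picked after their values were seen. Of the models that passed the filter on low-share libraries alone, 11 had a tested host. In 8 of these the log2 fold change was larger than in the host, and in 3, Peg13, Gm45640 and B930095G15Rik, it was not. Models that pass that filter can still owe their test to the high-share libraries, so this count is a description. The 40 hosts of all tested models had a median of 0.12. Of these 40, 8 were higher and 1 lower, beside 8.28% and 3.65% of all genes. The hosts were reached through the 65 tested models, with their selection, so these counts are descriptions too.

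**Figure D2:**
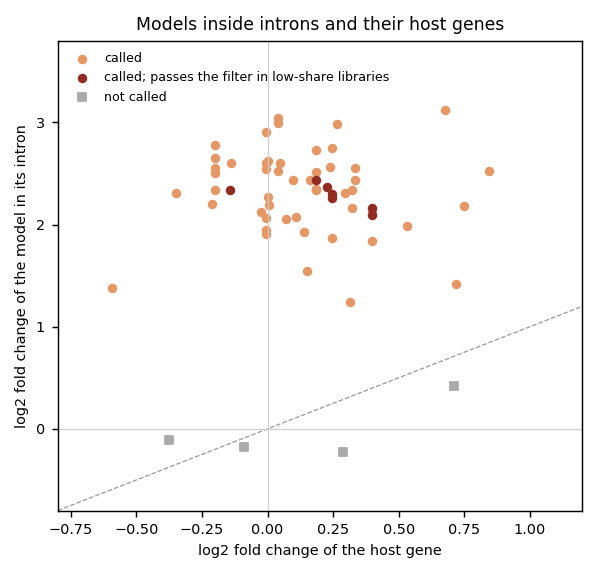
Log2 fold change of 61 models inside introns (y axis) against that of the gene that holds them (x axis), high-share over low-share libraries. Points above the dashed line of equal change have a larger value in the model than in the host. Dark points are called models that passed the filter on low-share libraries alone, and grey squares were not called. Orange points are called models that did not pass it there, so that a difference was built into their selection. Dark points can also owe their test to the high-share libraries.

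Runs of A were read from the longest annotated transcript of each model, because the libraries were primed with oligo-dT. A run of at least 12 A occurred in 215 of all 1792 models (12%) and in 2000 of 21876 coding genes (9.14%). Of the 65 tested models 19 held such a run, and Gm42583, which had the smallest p of them, did not. Most tested models were selected with a difference built in, so this count is a description. The stretches below are from called models with small p, chosen because they hold a run. They come from GENCODE M21 transcripts on GRCm38, written on the sense strand with the run of A in capitals and 20 bases on either side.
Gm42772: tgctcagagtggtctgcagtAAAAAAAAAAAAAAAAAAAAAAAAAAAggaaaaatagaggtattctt
Gm19938: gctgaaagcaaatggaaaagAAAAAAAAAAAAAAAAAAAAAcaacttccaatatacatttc
Gm48582: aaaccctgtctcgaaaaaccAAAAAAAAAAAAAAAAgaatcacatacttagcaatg
Gm42772 is on chromosome 5 with a run of 27 A, Gm19938 on chromosome 1 inside Xkr4 with 21, and Gm48582 on chromosome 13 inside the kinase gene Dapk1 with 16. Gm19938 averaged 32.9 CPM in high-share and 6.40 CPM in low-share libraries, with a log2 fold change of 2.29 ± 0.22 (adjusted p = 4.03e-09). Gm48582 averaged 27.5 CPM in high-share and 3.82 CPM in low-share libraries, with a log2 fold change of 3.04 ± 0.31 (adjusted p = 1.05e-08). Gm48582 did not pass the filter on low-share libraries alone. The part of priming at such runs in these values was not tested.

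Genes of splicing and RNA processing known to hold detained introns were also higher. Of 32 tested, 18 were higher (56.2%, beside 8.28% of all genes) and 0 lower (beside 3.65%), with a median log2 fold change of 0.41. Together they took 0.443% to 0.539% of gene counts in high-share and 0.336% to 0.389% in low-share libraries, without overlap. Pnisr, a serine and arginine rich splicing-associated gene, had 110.9, 132.9 and 246.4 CPM in high-share and 57.2, 72.2 and 98.7 CPM in low-share libraries and rose by 1.003 ± 0.12 (adjusted p = 2.22e-07). Luc7l3, a factor of the U1 small nuclear ribonucleoprotein, had 402.7, 451.1 and 551 CPM in high-share and 240.1, 313.2 and 361.8 CPM in low-share libraries (0.58 ± 0.08, adjusted p = 2.25e-06). In both genes, named for their small p within the list, the 2 sets of libraries did not overlap, beside 1.14% of all tested genes. Nktr, a cyclophilin with a splicing-factor-like domain, rose by 0.98 ± 0.13 (adjusted p = 1.63e-06) and the splicing regulator Tra2a by 0.93 ± 0.13 (adjusted p = 3.02e-06). Outside this list, Snrnp70, the 70 kDa protein of the same U1 particle, averaged 380 ± 48.1 CPM in high-share and 186.7 ± 21.4 CPM in low-share libraries (SD, n = 10 and 15; 1.06 ± 0.08, adjusted p = 1.28e-11).

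**Figure D3:**
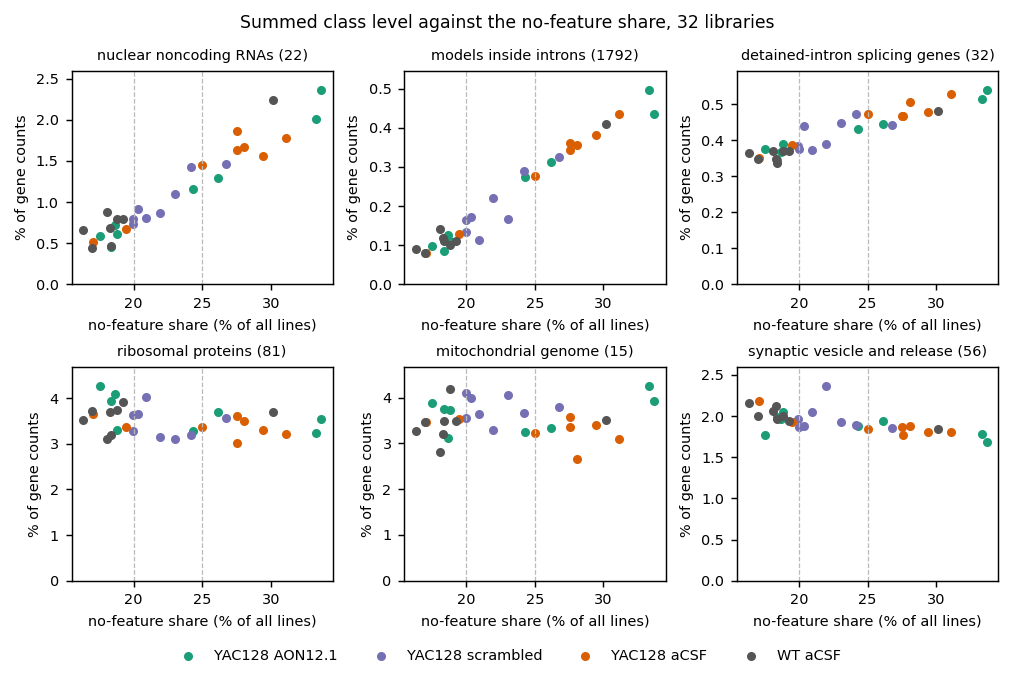
Summed counts of 6 gene classes as a percentage of gene counts (y axis, from 0) against the no-feature share (x axis) in all 32 libraries, coloured by group, with dashed lines at 20% and 25%. The 3 upper classes lie higher at a higher share and their high-share and low-share libraries do not overlap, whereas the 3 lower classes overlap.

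Other coding genes were among the higher genes with the smallest p. Eml5, a microtubule-associated protein, averaged 83.6 CPM in high-share and 30.3 CPM in low-share libraries (1.37 ± 0.11, adjusted p = 7.92e-11). Nav2, a neuron navigator, averaged 59.97 and 18.7 CPM (1.71 ± 0.16, adjusted p = 9.34e-10). Lrp1b, a lipoprotein receptor family member with 2058379 bases between the ends of the gene, had 34.7, 66.2 and 93.6 CPM in high-share and 13.05, 20.7 and 25.9 CPM in low-share libraries (1.67 ± 0.15, adjusted p = 1.2e-09). Zcchc7, a zinc finger protein of nuclear RNA surveillance, rose by 1.18 ± 0.11 (adjusted p = 2.85e-09), Thap3, a THAP-domain protein, by 1.05 ± 0.10 (adjusted p = 2.85e-09), and Fam193b by 0.93 ± 0.09 (adjusted p = 7.66e-09). These 6 genes were named for their small p, and none overlapped between the sets. Of all tested genes, 1.14% did not overlap.

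Length followed the change, and exonic length more than the span of the gene. Exonic length counts each base in an exon of any annotated transcript, retained-intron transcripts included. It is therefore not the length of the mature RNA, nor separate from the split by retained-intron transcript below. Among 10092 tested coding genes in 8 bins of equal number, the median log2 fold change was -0.12 in the shortest bin of exonic length (up to 2123 bases) and 0.17 in the longest (from 9851 bases). The share of genes called higher was 1.03% in the shortest and 24% in the longest bin, and the share called lower was 5.47% and 1.19%. By span, the median was -0.11 in the shortest and 0.07 in the longest bin, with 1.35% and 14.8% higher. Among genes of the lowest tercile of exonic length (up to 3564 bases), the median was -0.11, -0.10 and -0.11 from short to long span. Among those of the highest tercile (over 6290 bases) it was 0.01, 0.07 and 0.11. Genes are not independent replicates, and these medians are descriptions.

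Of 1631 tested coding genes that span at least 100 kb, 232 were higher and 38 lower, 14.2% and 2.33%, and of 2331 that span at most 10 kb, 63 were higher and 121 lower, 2.7% and 5.19%. Their medians were 0.07 and -0.10. The longest called genes were Ptprd, a receptor phosphatase of synapse formation (0.29 ± 0.09, adjusted p = 0.0304), and Dmd, dystrophin (0.47 ± 0.15, adjusted p = 0.0361). The shortest were Bmyc, a Myc relative (-0.23 ± 0.07, adjusted p = 0.0394), and Rprml, a reprimo-like gene (-0.53 ± 0.13, adjusted p = 0.00475). The call of Ptprd ended without WT replicate 1 (0.17, adjusted p = 0.3), YAC128 aCSF replicate 7 or AON12.1 replicate 6, that of Dmd in 8 of 25 fits that left out 1 library and that of Bmyc in 18 of 25, with adjusted p up to 0.13 for both. In the highest tercile of exonic length, genes with an annotated retained-intron transcript had a median of 0.11 and 17.1% were higher, and those without one had a median of 0.04 and 9.23% were higher.

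**Figure D4:**
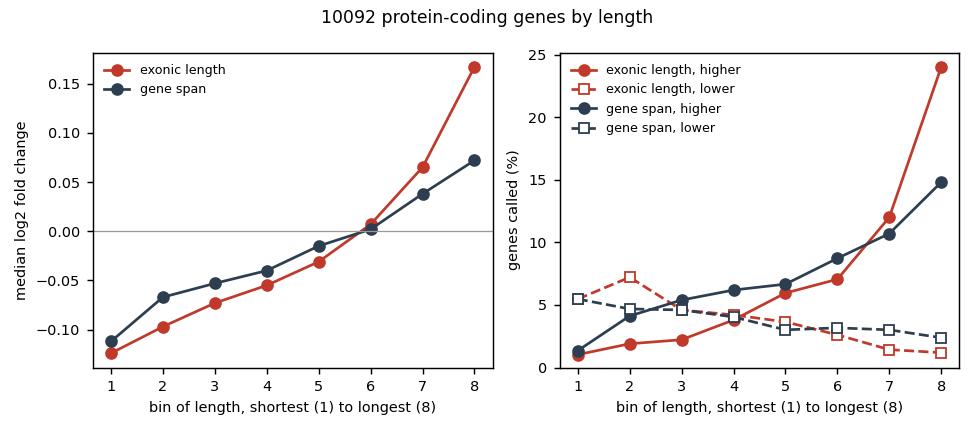
Median log2 fold change (left) and percentage of genes called higher or lower (right), high-share over low-share libraries, for 10092 coding genes in 8 bins of exonic length (red) or gene span (dark), shortest to longest. The exonic length line runs from -0.12 to 0.17 and the span line from -0.11 to 0.07.

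Ribosomal protein genes had a small lower median. Of 77 tested, 0 were higher and 3 were lower (3.9%, beside 3.65% of all genes), and 69 of 77 had a negative value, with a median of -0.11. This lay -0.087 from the median of all genes, within the spread of the class between low-share libraries (SD 0.089). Coding genes that span at most 5 kb had a median of -0.12, with 787 of 1042 negative. The sum of the ribosomal protein genes is given next. Their sum was 3.44% ± 0.23 of gene counts in high-share and 3.63% ± 0.34 in low-share libraries (SD, n = 10 and 15), with overlap. Rpl7a (-0.29 ± 0.09, adjusted p = 0.0217), Rpl23 (-0.32 ± 0.10, adjusted p = 0.0286) and Rps2 (-0.22 ± 0.07, adjusted p = 0.0346) were the 3 called. Leaving out 1 library ended the call of Rpl7a in 3, of Rpl23 in 6 and of Rps2 in 7 of 25 fits, each time including those without AON12.1 replicate 3 and YAC128 aCSF replicate 8, with adjusted p up to 0.105, 0.0872 and 0.108. Rpl28, a protein of the large subunit, had 341.5, 411.2 and 476.6 CPM in high-share and 393.8, 478.8 and 578.9 CPM in low-share libraries (-0.11 ± 0.08, adjusted p = 0.423). These genes have near-identical pseudogene copies, so their levels are uncertain where reads match both.

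None of the 9 tested genes of the mitochondrial genome was called in edgeR's quasi-likelihood test, beside 11.9% of all genes. A list of 9 is too short to set this apart from that share. Of the 9 genes 7 had a negative value, and the median of the 9 was -0.11. Their sum was 3.49% ± 0.44 in high-share and 3.54% ± 0.36 in low-share libraries (SD, n = 10 and 15). mt-Co1, a subunit of cytochrome c oxidase, had 485, 654.7 and 741 CPM in high-share and 551.8, 683.9 and 894.9 CPM in low-share libraries (-0.11 ± 0.08, adjusted p = 0.418). mt-Rnr2, the large mitochondrial ribosomal RNA, differed by 0.05 ± 0.10 (adjusted p = 0.815), and mt-Nd1, a subunit of complex I, by -0.22 ± 0.12 (adjusted p = 0.247). Of 76 tested nuclear genes of the respiratory chain, 0 were higher and 7 lower (9.21%, beside 3.65% of all genes). Of these, 74 of 76 had a negative value, with a median of -0.13, beside -0.12 for coding genes that span at most 5 kb. Cox8a, a cytochrome c oxidase subunit, had 737.2, 900 and 1041 CPM in high-share and 903.5, 1056 and 1401 CPM in low-share libraries (-0.33 ± 0.08, adjusted p = 0.00577). Cox5a, another subunit, was lower by -0.26 ± 0.07 (adjusted p = 0.0181), a call that ended without WT replicate 1, AON12.1 replicate 3 or YAC128 aCSF replicate 8 (adjusted p up to 0.0843). Of 31 proteasome genes, 1 was lower (3.23%, near the 3.65% of all genes). This gene, Psmb5 (-0.40 ± 0.13, adjusted p = 0.0341), lost its call in 6 of 25 fits that left out 1 library (adjusted p up to 0.12).

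Synaptic vesicle and release genes split by member. Of 53 tested, 2 were higher and 8 lower (15.1%, beside 3.65% of all genes), with a median of -0.12. Snap25, a SNARE protein of the presynaptic membrane, had 356.7, 419.6 and 539.3 CPM in high-share and 435, 520.9 and 672 CPM in low-share libraries (-0.40 ± 0.08, adjusted p = 0.000808). The vesicle protein Sv2b was lower as well (-0.76 ± 0.17, adjusted p = 0.00276). In both genes the sets overlapped. Pclo, a large scaffold protein of the active zone, rose by 0.80 ± 0.12, with 140.7 CPM in high-share and 86.0 CPM in low-share libraries on average (adjusted p = 4.08e-06). Syn1, which tethers vesicles to actin, differed by -0.14 ± 0.09 (adjusted p = 0.33). Cortical markers, described below, were lower as well. The median of the synaptic vesicle genes lay -0.10 from that of all genes. With scores of cortical and choroid plexus markers as covariates it lay -0.035 from it, and Sv2b was not called. These values differ by less than the spread of the class between low-share libraries (SD 0.069). Slc17a7 belongs to both the cortical and the synaptic list.

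On the postsynaptic side, 5 of 50 glutamate receptor and scaffold genes were higher and 5 lower (10% each, beside 8.28% and 3.65% of all genes), with a median of 0.02. The share higher is near that of all genes. The receptor genes Grm7 (0.56 ± 0.14, adjusted p = 0.00678), Grm5 (0.34 ± 0.09, adjusted p = 0.0164) and Grik1 (0.66 ± 0.19, adjusted p = 0.0217) were higher, and Cnih3, an auxiliary protein of AMPA receptors, was lower (-0.62 ± 0.18, adjusted p = 0.0194). Without WT replicate 1, Grm7 (adjusted p = 0.0517), Grm5 (adjusted p = 0.06) and Grik1 (adjusted p = 0.142) were not called, nor was Grm5 without AON12.1 replicate 3 or Grik1 without YAC128 aCSF replicate 7, and Cnih3 was not called without YAC128 aCSF replicate 8 (adjusted p = 0.174). Camk2a, a kinase of the postsynaptic density, differed by -0.15 ± 0.09 (adjusted p = 0.315). None of 20 GABA synapse genes was called, beside 11.9% of all genes, and their median was -0.05. Among 42 voltage-gated channel genes, 7 were higher and 3 lower (16.7% and 7.14%, beside 8.28% and 3.65% of all genes). The calcium channel subunit genes Cacna1a (0.69 ± 0.11, adjusted p = 3.44e-05) and Cacna1d (0.63 ± 0.15, adjusted p = 0.00526) rose.

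**Figure D5:**
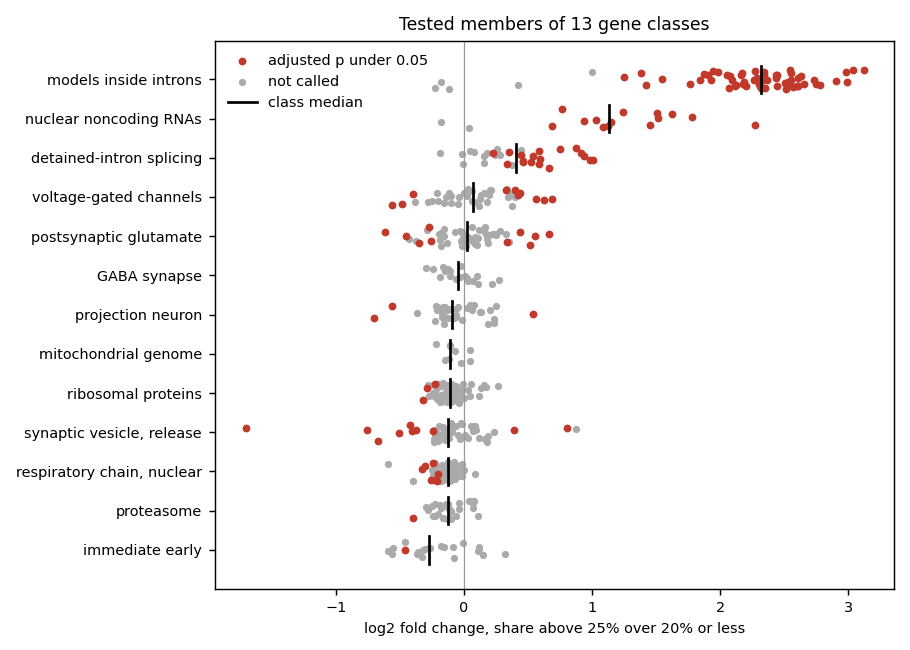
Log2 fold change, high-share over low-share libraries (x axis), of each tested member of 13 gene classes, with called genes in red, others in grey and the class median as a black bar. Intronic models have a median of 2.31, which their selection raises, nuclear noncoding RNAs one of 1.13, detained-intron genes one of 0.41, and the other classes have medians between -0.27 and 0.07.

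Of 36 tested genes of striatal projection neurons, 1 was higher and 2 lower (2.78% and 5.56%, beside 8.28% and 3.65% of all genes), with a median of -0.09. Penk had 1510 to 4367 CPM in high-share and 2482 to 5694 CPM in low-share libraries (-0.17 ± 0.13, adjusted p = 0.434), and Ppp1r1b 442 to 1515 and 776 to 2049 CPM (-0.22 ± 0.15, adjusted p = 0.369). Pde10a, a striatal phosphodiesterase, was higher (0.54 ± 0.15, adjusted p = 0.0179; adjusted p = 0.0531 without WT replicate 1). Cnr1, the cannabinoid receptor, had 34.0, 55.3 and 86.1 CPM in high-share and 57.2, 79.98 and 126.2 CPM in low-share libraries (-0.71 ± 0.13, adjusted p = 0.000267), with overlap. Scn4b, a sodium channel auxiliary subunit, was lower (-0.56 ± 0.19, adjusted p = 0.0449), a call lost in 17 of 25 fits that left out 1 library (adjusted p up to 0.138). In bulk tissue, fewer cells of a type and less RNA per cell cannot be told apart. Htt, mouse huntingtin, had 110.4 ± 12.6 CPM in high-share and 91.4 ± 14.7 CPM in low-share libraries (SD, n = 10 and 15; 0.28 ± 0.09, adjusted p = 0.0421). The call of Htt ended in 8 of 25 fits that left out 1 library, among them that without WT replicate 1 (0.20, adjusted p = 0.237), and reads of the human transgene that align to Htt cannot be separated from it. Of 22 immediate early genes 1 was lower (4.55%, near the 3.65% of all genes), and their median was -0.27. The lower one was Jund, an AP-1 transcription factor (-0.46 ± 0.10, adjusted p = 0.0012).

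The lower genes with the smallest p had log2 fold changes from -2.48 to -0.41. Ccn3, a secreted matricellular protein, had 0, 4.85 and 17.2 CPM in high-share and 3.52, 24.3 and 49.7 CPM in low-share libraries (-2.48 ± 0.39, adjusted p = 2.1e-05). Vxn, vexin, averaged 18.2 CPM in high-share and 43.2 CPM in low-share libraries (-1.51 ± 0.29, adjusted p = 0.000276). Fam131a (-0.69 ± 0.13, adjusted p = 0.000228), the actin-binding Enc1 (-0.62 ± 0.12, adjusted p = 4e-04), Gpd1l (-0.54 ± 0.11, adjusted p = 0.000553), Tmem14c (-0.54 ± 0.10, adjusted p = 0.000303), the COP9 signalosome subunit Cops7a (-0.51 ± 0.10, adjusted p = 0.000627), the ganglioside synthase St3gal5 (-0.48 ± 0.09, adjusted p = 0.000331), the casein kinase Csnk1g2 (-0.41 ± 0.08, adjusted p = 0.000739) and the dynein light chain Dynll1 (-0.41 ± 0.08, adjusted p = 0.000424) were lower by smaller amounts. All of these overlapped between the 2 sets of libraries, as did each of the 390 lower genes.

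Markers of neighbouring brain regions differed between the 2 sets of libraries. Of 15 cortical markers 10 were tested, 5 were lower (50%, beside 3.65% of all genes) and 0 higher, with a median of -0.52. Their sum was 0.0432% to 0.0838% of gene counts in high-share and 0.0475% to 0.110% in low-share libraries. The transcription factors Neurod2 (-1.97 ± 0.41, adjusted p = 0.000984), Tbr1 (-1.47 ± 0.39, adjusted p = 0.0106) and Mef2c (-0.45 ± 0.13, adjusted p = 0.0192), the vesicular glutamate transporter Slc17a7 (-1.71 ± 0.43, adjusted p = 0.00725) and the pentraxin Nptx1 (-0.59 ± 0.18, adjusted p = 0.0292) were the 5. Slc17a7 is also a member of the synaptic vesicle list. Without YAC128 aCSF replicate 8, Tbr1 (adjusted p = 0.0632), Mef2c (adjusted p = 0.15) and Nptx1 (adjusted p = 0.116) were not called, and Mef2c and Nptx1 lost their calls in 2 and 4 further fits, that without WT replicate 1 among both. With scores of cortical and choroid plexus markers as covariates, 435 genes were higher and 56 lower, and the median of the nuclear noncoding RNAs lay 1.13 above that of all genes, against 1.16 without the scores. The cortical score is made from the cortical markers themselves, so that fit says nothing of them. Among other genes named above or below, Vxn, Enc1, Csnk1g2, Cox5a, Rpl7a, Rpl23, Rps2, Psmb5, Sv2b, Grm5, Grik1, Cnih3, Htt, Pde10a, Ptprd, Dmd, Bmyc, Rprml, Zfhx3, Ramp3 and Prkcd lost their calls there.

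Of 9 thalamic markers, 6 were tested, 4 were higher (66.7%, beside 8.28% of all genes) and 0 lower, with a median of 0.76. Their sum was 0.0305% to 0.0992% in high-share and 0.0172% to 0.0409% in low-share libraries. Tcf7l2 (1.43 ± 0.31, adjusted p = 0.00168), Zfhx3 (0.59 ± 0.14, adjusted p = 0.00352), Ramp3 (1.19 ± 0.36, adjusted p = 0.026) and Prkcd (0.66 ± 0.21, adjusted p = 0.0405) were the 4. WT replicate 1 held the highest sum, and without it none of the 4 was called, with Tcf7l2 at 0.81 (adjusted p = 0.144), Zfhx3 at 0.45 (adjusted p = 0.0653), Ramp3 at 0.03 (adjusted p = 0.972) and Prkcd at 0.17 (adjusted p = 0.657), and Prkcd lost its call in 5 further fits. None of the 3 tested choroid plexus markers was called, and Ttr, transthyretin, stood at 3191 CPM in YAC128 aCSF replicate 4 and at 152.8 CPM or less in the other high-share libraries (2.01 ± 0.93, adjusted p = 0.163). Of 16 astrocyte markers 1 was lower (6.25%, beside 3.65% of all genes), the gap junction gene Gja1 (-0.54 ± 0.13, adjusted p = 0.00316). None of the tested markers of oligodendrocytes (14), their precursors (9), microglia (12), endothelial and mural cells (13), interneurons (10), blood (4) or ependyma (3) was called, beside 11.9% of all genes. The lists are short, and a lack of calls does not show equal levels. Their medians, in that order, were -0.02, -0.04, -0.13, -0.04, -0.18, -0.18 and -0.02. Negative values were held by 11 of 12 microglia and 8 of 10 interneuron markers. The part of these markers in the other results was not tested beyond the fit with the scores, which held no thalamic marker.

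The 7 libraries between 20% and 25% were not used in the split, and were 5 scrambled, 1 AON12.1 and 1 YAC128 aCSF library. With group as covariate the last 2 add nothing to a slope on the share, so that it rests on the 5 scrambled libraries. It was positive for 695 of the 884 higher genes (78.6%), against 49.4% of all tested genes, and negative for 226 of the 390 lower genes (57.9%). In these 7 libraries edgeR's test called 1 gene, a lower one (0.00936% of those tested), and 344 had an unadjusted p under 0.05. The median slope per 10 percentage points was 1.63 for nuclear noncoding RNAs, 2.44 for intronic models and 0.79 for detained-intron genes, against -0.01 for all genes. The slope was -0.80 for ribosomal protein, -0.74 for nuclear respiratory chain and 0.12 for mitochondrial genome genes. For markers it was 0.07 for cortex, -0.165 for thalamus and -2.515 for choroid plexus, each opposite in sign to the median of that list in the split.

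With the share as a number over all 32 libraries, 9.49% of genes were higher with it and 5.08% lower, 14.6% in all. The slope differed between the 4 groups for 2 genes (0.0187%), and for none among the YAC128 groups alone, where 300 had an unadjusted p under 0.05. The 4 groups, which share no library, were also fitted apart on the share. Among genes called within YAC128 aCSF libraries (246, 2.3% of those tested, with 1.83% higher and 0.478% lower), 242 had the same sign in AON12.1 libraries and 143 were called there too. Among genes called within AON12.1 libraries (338, 3.17%, with 2.97% higher and 0.197% lower), 329 had the same sign in YAC128 aCSF libraries. Within WT libraries 145 genes (1.36%, with 1.3% higher and 0.0562% lower) were called, 144 of them with the same sign in YAC128 aCSF, but the WT slope rests on replicate 1, at 30.2% against 19.2% or less in the other 7. No gene was called within scrambled libraries, whose shares ran from 19.9% to 26.8% and which include the 5 just described, with 615 at an unadjusted p under 0.05. There the median slope of nuclear noncoding RNAs was 1.42, against 0.70 in AON12.1, 1.08 in YAC128 aCSF and 1.06 in WT libraries. Meg3 rose by 1.23 per 10 points in AON12.1, 1.82 in scrambled, 1.39 in YAC128 aCSF and 1.67 in WT libraries.

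More genes were detected in high-share libraries. Thinned to the 658934 gene counts of the shallowest library, high-share libraries held 15630 ± 160.2 genes with a count and low-share libraries 14770 ± 248.4 (SD, n = 10 and 15). The difference was larger than the spread within either set (two-sided exact permutation test within groups over 17640 arrangements, p = 5.67e-05, the smallest they can give, adjusted p = 0.000227 over 4 measures).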

How the data were processed

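Striatal RNA was made into 3' libraries from 100 ng total RNA with an oligo-dT primer carrying a molecular identifier, per the labels' protocols. The authors deposited 1 file of whole-number counts per gene for each of 32 libraries, with 55415 gene lines and 5 summary lines. FastQC, cutadapt 2.10, STAR 2.7.5a, HTSeq 0.12.4 and GRCm39 are named in the submitters' processing notes. Strand setting and collapsing of molecular identifiers are not given in the sources used here. GENCODE M21 on GRCm38 served for names (52133 features, 99.832% of counts), chromosomes and lengths.

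The share was computed from all lines, and tests used gene lines. Genes passed edgeR's filter (count 10, total 15). High-share and low-share libraries were compared with edgeR 4.0.16 (R 4.3.3; TMM factors, quasi-likelihood test, Benjamini-Hochberg adjustment over 10679 genes, threshold 0.05) with group as covariate. The script was tested on simulated data. limma 3.58.1 voom, DESeq2 1.42.0 and other scalings, filters and splits were alternatives. Named genes were those with the smallest p in each direction, listed genes, and the longest and shortest called genes. Libraries, lists and members were chosen with earlier results of these data known. Exact permutations reassigned libraries within groups. A few items are not reported here.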

Additional observations from a re-analysis of the deposited data

Results flagged for a closer look

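Of 106 sets of values examined with Dixon's test at the 95% level, 11 held a library standing apart from the rest, and chance alone flags about 1 in 20. WT aCSF replicate 1 had a no-feature share of 30.16%, with the next WT aCSF library at 19.23%. The same library stood apart among the high-share libraries in Ramp3, at 85.95 CPM with the next at 19.53 CPM, in Prkcd, at 184.9 CPM with the next at 92.33 CPM, and in the summed thalamic markers, at 0.0992% of gene counts with the next at 0.0572%. YAC128 aCSF replicate 4 had 3191 CPM of Ttr, with the next at 152.8 CPM, and a choroid plexus sum of 0.350%, with the next at 0.0203%. AON12.1 replicate 6 had 17.23 CPM of Ccn3 and 16.15 CPM of Tbr1, above all other high-share libraries, AON12.1 replicate 4 had 284.9 CPM of Cacna1a and 192.2 CPM of Kcnd2, and AON12.1 replicate 3 had 60.38 CPM of Gm48582.

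The slope on the share differed between the 4 groups for 2 genes of 10679 (0.0187%), in edgeR's quasi-likelihood F test of the interaction. The adjusted p was 0.000119 for Rora, a nuclear receptor on the list of thalamic markers, and 0.0211 for Ptpn3, a tyrosine phosphatase. The log2 slope of Rora per 10 percentage points was -0.02 in AON12.1, -0.28 in scrambled, 0.03 in YAC128 aCSF and 1.36 in WT aCSF libraries, and that of Ptpn3 was -1.08, -1.60, -0.36 and 1.55. The WT slopes rest on replicate 1, and among the 3 YAC128 groups no gene was called.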

How the results depend on the processing

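No paired analysis was possible because the labels give animal numbers and no replicate numbers shared between groups. Depth limits genes below the filter, and the cause of each change below was not tested. Class values here are class medians minus the median of all genes. Leaving out 1 library at a time gave 669 to 937 higher and 151 to 446 lower genes, and class medians stayed within the spread between libraries in all 25 fits, but the log2 fold change of Dlx6os1 then ranged from -0.079 to 0.277.

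Lower genes numbered 225 with gene totals as scaling. Scaling to all lines gave 553 higher and 3115 lower genes. Without a filter there were 1574 and 611, with class values of 1.46 for intronic models, 0.028 for long, -0.12 for short and -0.17 for synaptic vesicle genes. Setting libraries above 25% against all others gave 0.92 for nuclear noncoding RNAs and 1.68 for intronic models, and the share as a number gave 1.86 for intronic models. Marker scores left 435 higher and 56 lower genes. Without WT aCSF 170 genes were lower, without YAC128 aCSF 520 were higher and 51 lower, and without AON12.1 501 were higher and 130 lower, with 0.06 for long genes. Series 18 alone gave 61 higher and 1 lower gene, 1.61 for nuclear noncoding RNAs, 2.74 for intronic models, -0.27 for mitochondrial and -0.14 for postsynaptic genes. In series 18 only WT aCSF held both sets, 1 high-share against 2 low-share libraries. The series 18 counts and class values therefore rest on WT replicate 1, and no conclusion is drawn from them. Series 19 alone gave 344 higher and 28 lower genes, and 0.061 for long genes. A limit of 5 kb gave -0.093 for short genes. The interaction called 0 genes in the YAC128 groups alone.

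Slopes within a group were added after seeing the data. They called 317 higher and 21 lower genes in AON12.1, with 0.72 for nuclear noncoding RNAs and 1.54 for intronic models. In scrambled libraries 0 were called in either direction, with 1.44 for nuclear noncoding RNAs, 0.026 for long and -0.20 for ribosomal protein genes. In YAC128 aCSF 195 and 51 were called, with 2.00 for intronic models, and in WT aCSF 139 and 6, with 2.06 for intronic models and 0.027 for ribosomal protein genes.

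Signs turned mostly in genes that were not called. mt-Rnr2 was -0.14 with all lines, -0.007 without covariate, -0.058 with scores, -0.014 without AON12.1, -0.034 in series 18, and -0.12 and -0.29 within YAC128 aCSF and scrambled libraries. Dlx6os1 was -0.15 with all lines, -0.10 with voom, -0.086 above 25% against all others, -0.25 without covariate, -0.053 with scores, -0.079 without scrambled and -0.14 without AON12.1 libraries, -1.21 in series 18 and -1.12 within WT aCSF. Kcnip4 was -0.002 with all lines, -0.048 in series 19 and -0.17 within AON12.1. Syn1 was 0.019 with scores, mt-Co1 0.00 in series 18 and 0.02 within WT aCSF, and Penk was 0.061 and Ppp1r1b 0.06 in series 19. Within scrambled libraries Syn1 was 0.032, Penk 0.009, Ppp1r1b 0.12, Gpd1l 0.415, Scn4b 0.025, Zfhx3 -0.18, Ramp3 -0.37, Ttr -0.65 and Bmyc 0.079. Within AON12.1 libraries Ramp3 was -0.20, Camk2a 0.07 and Kcnd2 0.14.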
